A study of Mus musculus with 8 samples.

Results

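The genes described here carry choline into cells and turn it into phosphatidylcholine. They were chosen by function, with earlier results of these data known, as 9 mouse genes of choline uptake, choline release and the CDP-choline pathway. Of these, 8 were measured, by 9 probe sets, among 22180 genes on 8 expression arrays. The measured genes were Slc44a1 and Slc44a2 (choline transporters), Chka (choline kinase alpha), Pcyt1a and Pcyt1b (the cytidylyl transferases), Chpt1 (cholinephosphotransferase), Gpcpd1 (a choline-releasing phosphodiesterase) and Plpp1 (a lipid phosphatase). The ninth, the choline kinase gene Chkb, had 0 probe sets of its own. Both probe sets that list it also list other genes, so no value is given for it.

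The arrays were made from hearts, labelled as myocardium, of 4 female and 4 male mice, all aged 8 months and all carrying the Pcyt2+/- genotype. Pcyt2 encodes the cytidylyl transferase of the parallel CDP-ethanolamine pathway, which makes phosphatidylethanolamine. Sex is the only difference between the labelled groups, and no wild-type heart entered any comparison. The labels call the samples biological replicates and do not give the strain, the litters or the allele's construction.

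Phosphatidylcholine is the main phospholipid of most animal membranes. Choline enters the cell through transporters, is phosphorylated by choline kinase, is activated with CTP by cytidylyl transferase, which is usually the controlling step, and is joined to diacylglycerol by cholinephosphotransferase. The ethanolamine branch runs through matching steps and draws on the same diacylglycerol and CTP, and the Slc44a1 and Slc44a2 proteins have been reported to carry ethanolamine as well as choline.

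Every value is relative to the probe set's own median over the 8 arrays, on a scale taken as log2. It thus shows how an array compares with the others and not how strongly a gene is expressed. Levels of different genes cannot be compared. Differences are females minus males. The scale runs in the usual direction, since Xist was higher on female arrays (difference 4.84 ± 0.20 SE) and the Y-linked genes Uty, Kdm5d and Eif2s3y were lower (-2.47, -1.88 and -3.03). Of the 7 cardiomyocyte markers all were measured, and their mean per array lay between -0.053 and 0.034, but centred values cannot show whether a tissue's markers are abundant or absent. Some hearts stood apart in markers of other tissue. The mean of 7 fast skeletal muscle genes was 0.29 in female 1, 0.55 in male 1 and 0.82 in male 2, against -0.23 to 0.069 in the other hearts. The mean of 5 liver genes was 0.51 in female 1 and 0.77 in female 2, against -0.078 to -0.027 elsewhere, and that of 4 atrial genes was -0.79 in female 1 and -0.78 in male 3, against -0.16 to 0.48 elsewhere. In whole hearts, fewer cells of a type and less RNA per cell cannot be told apart.

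The promoters of 3 genes are shown because they carry the comparisons that follow. Slc44a1 and Slc44a2 are related transporters whose means differed between the sexes in opposite directions, and Slc44a2 and Chka are, of the 3 pairs named by smallest p for their pattern over the arrays, the pair for which both promoters are in the RefSeq table (build GRCm38.p6). The table holds 7 of the 9 genes, with 12 windows, each running from 250 bases before to 50 bases after an annotated start. Capitals mark GC boxes (GGGCGG, or CCGCCC on the other strand) and CCAAT boxes (CCAAT, or ATTGG on the other strand), with overlapping matches counted separately. All 4 windows are on the + strand.
Slc44a1, chr4:53440163-53440462: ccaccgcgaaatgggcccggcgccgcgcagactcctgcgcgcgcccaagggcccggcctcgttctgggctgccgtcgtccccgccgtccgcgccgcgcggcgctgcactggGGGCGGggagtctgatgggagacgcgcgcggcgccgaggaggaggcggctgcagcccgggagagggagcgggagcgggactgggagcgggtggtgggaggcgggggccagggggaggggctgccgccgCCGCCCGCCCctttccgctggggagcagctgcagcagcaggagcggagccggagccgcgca
Slc44a2, upstream start, chr9:21320469-21320768: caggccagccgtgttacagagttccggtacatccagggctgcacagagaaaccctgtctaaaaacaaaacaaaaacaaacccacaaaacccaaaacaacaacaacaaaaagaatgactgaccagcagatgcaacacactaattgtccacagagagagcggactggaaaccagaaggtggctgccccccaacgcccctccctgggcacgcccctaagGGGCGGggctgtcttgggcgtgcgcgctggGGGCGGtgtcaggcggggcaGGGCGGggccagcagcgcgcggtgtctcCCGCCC
Slc44a2, downstream start, chr9:21337578-21337877: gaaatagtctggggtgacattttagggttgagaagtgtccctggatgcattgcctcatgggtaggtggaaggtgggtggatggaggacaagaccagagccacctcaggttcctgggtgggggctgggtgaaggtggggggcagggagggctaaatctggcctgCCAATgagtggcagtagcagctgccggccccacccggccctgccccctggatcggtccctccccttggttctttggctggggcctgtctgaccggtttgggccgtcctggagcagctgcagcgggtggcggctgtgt
Chka, chr19:3851523-3851822: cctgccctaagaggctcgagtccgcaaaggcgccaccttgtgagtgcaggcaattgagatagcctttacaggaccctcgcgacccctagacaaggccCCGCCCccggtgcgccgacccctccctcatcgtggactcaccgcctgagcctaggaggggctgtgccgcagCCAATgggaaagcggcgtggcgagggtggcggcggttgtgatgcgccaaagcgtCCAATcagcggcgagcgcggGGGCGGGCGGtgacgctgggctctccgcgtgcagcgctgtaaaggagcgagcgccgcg
The Slc44a1 window was 79.7% G or C, against a median of 52.7% over all 32851 windows in the table, and held 3 GC boxes and 0 CCAAT boxes. The upstream Slc44a2 window held 4 GC boxes and 0 CCAAT boxes at 60.0% G or C, and the downstream one held 0 and 1 at 63.3%. The Chka window held 3 GC boxes and 2 CCAAT boxes at 68.7%. Of all windows, 35.7% held a GC box and 37.4% a CCAAT box. Among the 12 windows of these genes, 8 held a GC box and 6 a CCAAT box, though windows of 1 gene can overlap. Neither Pcyt1b window, on the X chromosome, held a GC box. A match is a run of letters only, and the arrays do not tell the 2 starts of Slc44a2 apart.

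**Figure D1:**
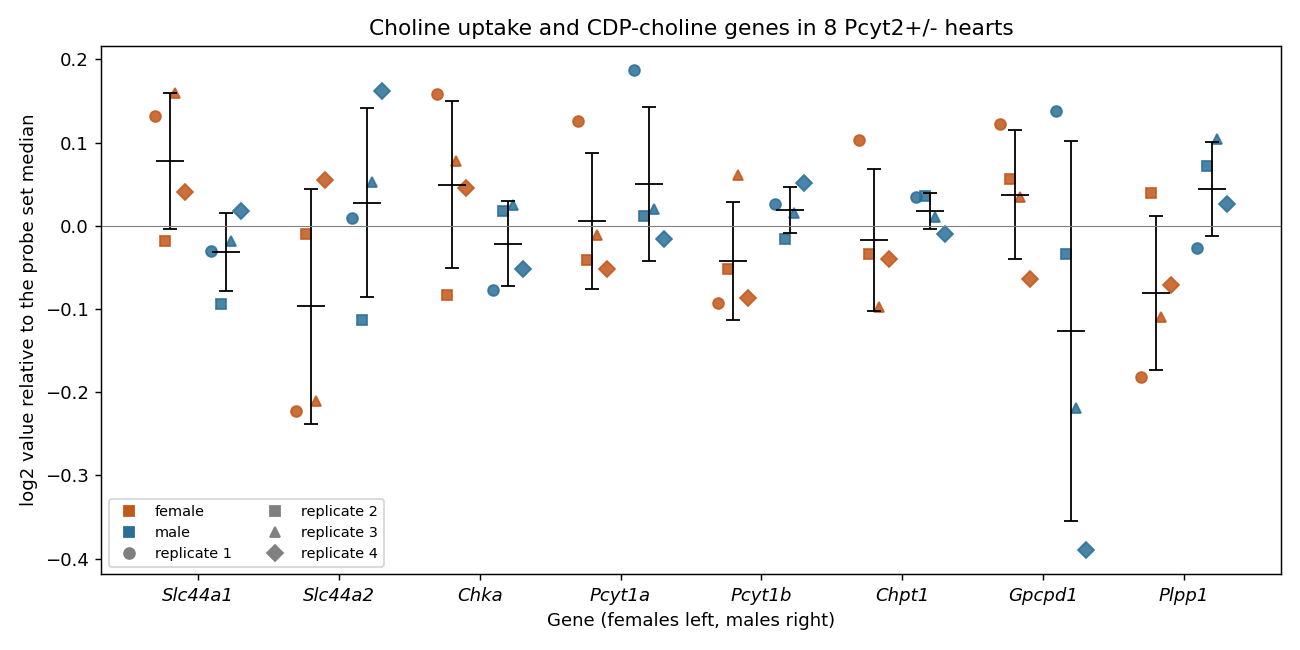
Log2 value of each of the 8 genes on each array, relative to the probe set median (y axis), with females left and males right for each gene (x axis). Points are single hearts, with a shape for each replicate number, and bars are mean ± SD (n = 4). The sexes overlap for every gene, and Gpcpd1 reaches from 0.14 in male 1 to -0.39 in male 4.

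Across the pathway no gene passed the test for a difference between the sexes. Of the 8 genes, 3 had higher means in females (Slc44a1, Chka and Gpcpd1) and 5 had lower means in females (Slc44a2, Pcyt1a, Pcyt1b, Chpt1 and Plpp1). The median difference was -0.040, against -5.8e-04 over all genes, of which 49.6% had higher means in females. By limma, 0 of the 8 passed an adjusted p under 0.05 (adjusted p from 0.68 to 0.94), where 0.0316% of all genes passed. At an unadjusted p under 0.05 there were 2 of 8, Slc44a1 and Plpp1, against a background of 6.96%. In 0 of the 8 genes were female and male values free of overlap, against 3.74% of all genes. The absolute differences of 7 of the 8 genes lay above the median of all genes, with Slc44a1 at percentile 88.8, Slc44a2 at 91.7, Plpp1 at 91.8 and Gpcpd1, which had the largest difference of the 8 (0.16), at 96.2.

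The 2 transporter genes had mean differences of opposite sign. Slc44a1, on chromosome 4, encodes the choline transporter-like protein of the plasma and mitochondrial membranes. It had values of 0.13, -0.018, 0.16 and 0.041 in females 1 to 4, against -0.030, -0.094, -0.018 and 0.018 in males 1 to 4. Thus 3 of the 4 female hearts lay above all male hearts, and female 2 lay among the males. The mean was 0.078 ± 0.082 in females and -0.031 ± 0.047 in males (SD, n = 4 each), a 1.08-fold difference. On the log2 scale this was 0.11 ± 0.046 (SE, 95% interval 0.0045 to 0.21, limma unadjusted p = 0.043, adjusted p = 0.70), and the exact two-sided permutation test gave p = 0.086, where 4 against 4 cannot go below 0.0286. Without the 3 hearts with the highest Myh4, a fast skeletal myosin gene, the Slc44a1 difference was 0.061 (male 2, male 1 and female 1 left out). With the mean of the adipocyte markers as a covariate the Slc44a1 difference was 0.16 (limma adjusted p = 0.61).

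Slc44a2, on chromosome 9, encodes the second choline transporter-like protein. Its values were -0.22, -0.0093, -0.21 and 0.056 in females 1 to 4, against 0.0093, -0.11, 0.053 and 0.16 in males 1 to 4. Females 1 and 3 were the lowest hearts, and they were also the 2 highest for Slc44a1. The Slc44a2 mean was -0.097 ± 0.14 in females and 0.028 ± 0.11 in males (SD, n = 4 each), a difference of -0.12 ± 0.078 (SE, 95% interval -0.30 to 0.052, limma adjusted p = 0.81). The spread within each sex was about as large as the difference. Without female 1 the Slc44a2 difference was -0.083 and without male 4 it was -0.080, and with the adipocyte marker mean as a covariate it was -0.26 (limma adjusted p = 0.61). That marker mean was -0.054, 0.20, 0.043 and 0.44 in females 1 to 4, against -0.22, -0.11, 0.043 and -0.15 in males 1 to 4, and its part in the Slc44a2 result was not tested beyond this fit.

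**Figure D2:**
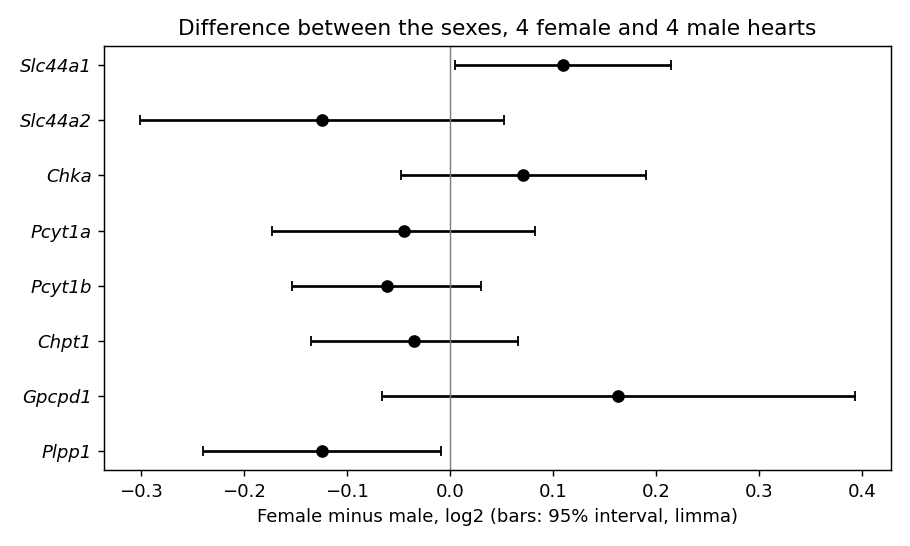
Difference between 4 female and 4 male hearts for each gene (female minus male, log2, x axis) with its 95% interval from limma. The intervals of Slc44a1 (0.0045 to 0.21) and Plpp1 (-0.24 to -0.0089) leave out 0 before adjustment, and those of the other 6 genes hold it.

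Chka, on chromosome 19, encodes choline kinase alpha, which traps choline in the cell as phosphocholine. Averaged over its 2 probe sets it had values of 0.16, -0.083, 0.078 and 0.045 in females 1 to 4, against -0.077, 0.018, 0.025 and -0.052 in males 1 to 4. The difference of 0.071 ± 0.053 (SE, 95% interval -0.048 to 0.19, limma adjusted p = 0.86) hid a disagreement between the probe sets. Probe set 17355984 had 0.31, -0.067, 0.21 and 0.094 in females 1 to 4, against -0.11, -0.022, 0.022 and -0.12 in males 1 to 4. Probe set 17361002 had 0.0043, -0.10, -0.054 and -0.0043 in females 1 to 4, against -0.042, 0.059, 0.027 and 0.022 in males 1 to 4. The first read higher in 3 of 4 female hearts and the second lower on average in females. Their differences were 0.20 ± 0.077 and -0.055 ± 0.037 (SE, limma adjusted p = 0.67 and 0.84, each probe set fitted by itself), so no single direction can be given for Chka. The averaged difference was 0.035 without female 1, 0.12 without female 2 (unadjusted p = 0.031, adjusted p = 0.75) and 0.027 without the 3 hearts with the highest Myh4. Which transcripts each probe set covers is not given in the sources used here.

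**Figure D3:**
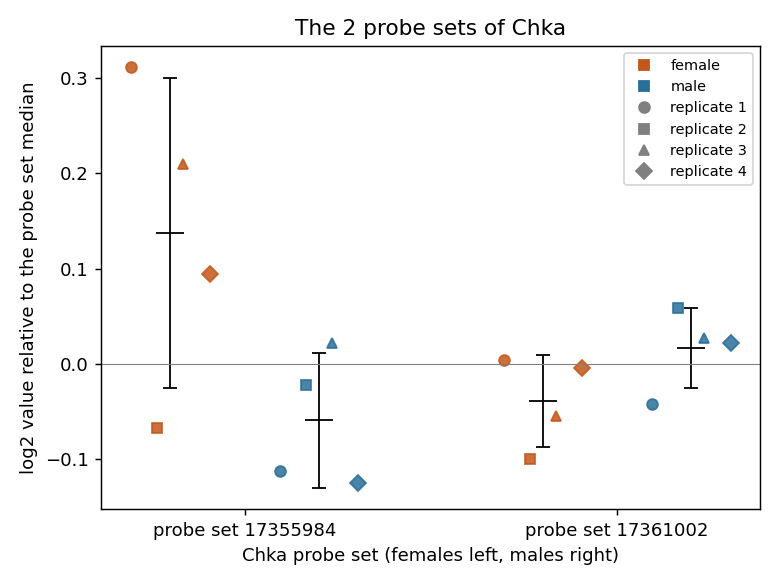
Log2 value of the 2 probe sets of Chka on each array (y axis), with females left and males right for each probe set. Bars are mean ± SD (n = 4). The means are 0.14 in females and -0.059 in males for probe set 17355984, and -0.038 in females and 0.016 in males for probe set 17361002.

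The cytidylyl transferase genes, whose enzymes make CDP-choline, showed small differences. Pcyt1a, on chromosome 16, encodes the alpha enzyme found in most tissues. Its values were 0.13, -0.041, -0.011 and -0.051 in females 1 to 4, against 0.19, 0.011, 0.020 and -0.016 in males 1 to 4. In each sex replicate 1 was the high heart and the other 3 lay close together. The Pcyt1a difference was -0.045 ± 0.057 (SE, 95% interval -0.17 to 0.083, limma adjusted p = 0.94), and it was 3.4e-04 without male 1, -0.085 without female 1, -0.030 without female 2, -0.026 without female 4 and -0.082 without the 2 hearts with the highest Alb. Pcyt1b, on the X chromosome, encodes the beta enzyme, best known from brain and gonads. It had -0.092, -0.052, 0.061 and -0.087 in females 1 to 4, against 0.026, -0.016, 0.016 and 0.051 in males 1 to 4. Female 3 was the highest heart for Pcyt1b and the other 3 females the lowest. The difference was -0.062 ± 0.041 (SE, 95% interval -0.15 to 0.030, limma adjusted p = 0.82). Without female 3 it was -0.096 (unadjusted p = 0.020, adjusted p = 0.64), and without the 2 hearts with the highest Alb it was -0.032. Pcyt1b had the narrowest spread within the sexes of the 8 genes, at percentile 29.3 of all genes. The intervals of both genes leave room for lower values in females by as much as the Slc44a1 difference.

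Chpt1, on chromosome 10, encodes a cholinephosphotransferase, an enzyme that completes phosphatidylcholine. Its values were 0.10, -0.034, -0.098 and -0.040 in females 1 to 4, against 0.034, 0.035, 0.010 and -0.010 in males 1 to 4. Females held both the highest and the lowest heart, and the males lay close together. The means were -0.017 ± 0.085 in females and 0.017 ± 0.022 in males (SD, n = 4 each), a difference of -0.035 ± 0.044 (SE, 95% interval -0.13 to 0.066, limma adjusted p = 0.94). The Chpt1 difference was -0.075 without female 1 (unadjusted p = 0.060), -0.0076 without female 3, -0.057 without the 3 hearts with the highest Myh4 and -0.087 without the 2 with the highest Alb, females 1 and 2. With the adipocyte marker mean as a covariate the sign turned for Chpt1 (0.0039) and for Pcyt1a (0.044). A further Chpt1 probe set also lists Sycp3 and was not used. On it female 1 read -0.042 and female 3 -0.085.

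Plpp1, on chromosome 13, encodes a lipid phosphatase that can turn phosphatidic acid into diacylglycerol. Whether that diacylglycerol is used in the last step was not measured. Its values were -0.18, 0.039, -0.11 and -0.071 in females 1 to 4, against -0.026, 0.071, 0.10 and 0.026 in males 1 to 4. The 3 lowest hearts were female, and female 2 lay among the males, as it did for Slc44a1. The mean was -0.081 ± 0.092 in females and 0.044 ± 0.057 in males (SD, n = 4 each), a 1.09-fold difference. On the log2 scale it was -0.12 ± 0.051 (SE, 95% interval -0.24 to -0.0089, limma unadjusted p = 0.038, adjusted p = 0.68; exact two-sided permutation test p = 0.086). The mean of 6 endothelial markers was also lowest in female 1, at -0.17, 0.016, -0.012 and 0.036 in females 1 to 4, against 0.014, 0.023, 0.043 and 0.015 in males 1 to 4. Female 1 was likewise lowest for the means of the fibroblast (-0.15), macrophage (-0.16) and atrial (-0.79) markers. It was lowest for no other measured list. For smooth muscle and pericyte markers it had -0.070, against -0.094 in male 2, and for cardiomyocyte markers it was highest (0.034). The atrial mean was nearly as low in male 3 (-0.78), the heart with the highest Plpp1. With the atrial marker mean as a covariate the Plpp1 difference was -0.13 (limma adjusted p = 0.68). It was -0.20 with the adipocyte marker mean and -0.14 with the fast skeletal muscle one (limma adjusted p = 0.57 and 0.61). The part of the endothelial, fibroblast and macrophage lists in the Plpp1 result was not tested. Without female 1 the Plpp1 difference was -0.091 (unadjusted p = 0.10). Of the 8 hearts left out in turn, only without female 2 did both Plpp1 and Slc44a1 have an unadjusted p under 0.05, and neither had one without female 1, female 3, male 2, male 3 or the 3 hearts with the highest Myh4.

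Gpcpd1, on chromosome 2, encodes a phosphodiesterase that splits glycerophosphocholine, a breakdown product of phosphatidylcholine, and so releases choline. Its values were 0.12, 0.057, 0.034 and -0.064 in females 1 to 4, against 0.14, -0.034, -0.22 and -0.39 in males 1 to 4. The males were spread over a wider range than the females and held both the highest and the lowest heart. The mean was 0.037 ± 0.077 in females and -0.13 ± 0.23 in males (SD, n = 4 each), a difference of 0.16 ± 0.10 (SE, 95% interval -0.066 to 0.39, limma adjusted p = 0.80). Its spread within the sexes lay at percentile 96.4 of all genes, the widest of the 8. The 2 lowest hearts, males 3 and 4, had means of the fast skeletal muscle list of -0.16 and -0.16, against 0.55 and 0.82 in males 1 and 2. In females 1 to 4 the mean of this list was 0.29, 0.069, -0.13 and -0.23. Females 3 and 4 were thus also low for the list, with Gpcpd1 at 0.034 and -0.064. With that list as a covariate the Gpcpd1 difference was 0.26 (unadjusted p = 0.0060, adjusted p = 0.43), without the 3 hearts with the highest Myh4 it was 0.31 (adjusted p = 0.47), and it was 0.25 without male 1 (unadjusted p = 0.016, adjusted p = 0.68) and 0.076 without male 4.

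How the genes varied together was examined over all 36 relations, 28 pairs of these genes and 8 with Pcyt2, over 8 arrays. Of the 28 pairs, 13 had a Pearson r above 0 and 15 below. Whether the pathway moves as a block was not tested. The relation with the smallest p was between Slc44a1 and Plpp1, which ran in opposite directions, with Pearson r = -0.84 (exact permutation p = 0.0087, adjusted p = 0.31 over the 36) and Spearman rho = -0.74 (exact permutation p = 0.046, adjusted p = 0.55). Without females 1 and 3, the hearts farthest from the Slc44a1 median, r was -0.58, and over deviations from the sex means it was -0.70. Within the sexes it was -0.87 in females and -0.24 in males. Slc44a2 and Gpcpd1 had r = -0.70 and rho = -0.67 (exact permutation p = 0.050 and 0.083, adjusted p = 0.45 and 0.75), and r was -0.69 without females 1 and 3. Slc44a2 and Chka had r = -0.69 and rho = -0.43 (exact permutation p = 0.061 and 0.30, adjusted p = 0.45 and 0.91). That relation rested on females 1 and 3, without which r was -0.13. Chka was averaged here over probe sets that disagreed, and r was not computed for each of them. Pcyt1a and Chpt1, the fourth pair by p and named after the values were seen, had r = 0.69 and rho = 0.74 (exact permutation p = 0.062 and 0.046, adjusted p = 0.45 and 0.55). Their r was 0.51 without female 1 and male 1 and 0.66 over deviations from the sex means. None of the 36 passed the adjustment, and 1 had an unadjusted Pearson p under 0.05.

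**Figure D4:**
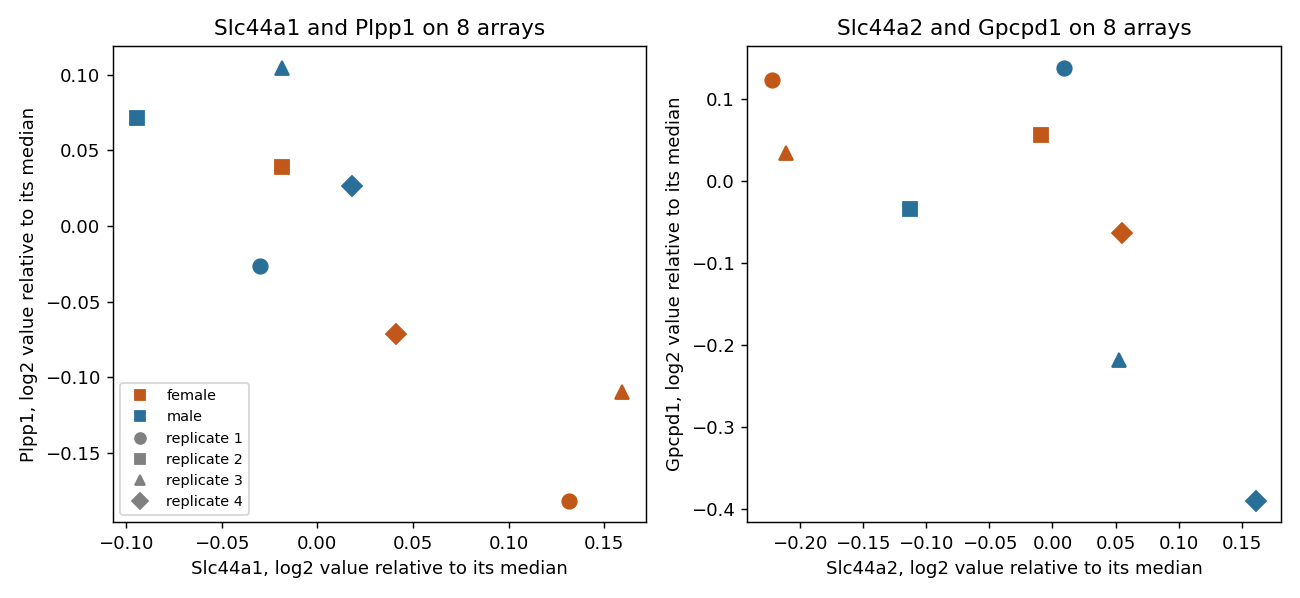
Log2 values of Plpp1 against Slc44a1 (left) and of Gpcpd1 against Slc44a2 (right) on the 8 arrays, each relative to its median, with colour for sex and shape for replicate number. Females 1 and 3 lie lowest for Plpp1 and highest for Slc44a1, and male 4 lies lowest for Gpcpd1 and highest for Slc44a2.

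Pcyt2, the gene with 1 mutated allele in every heart, had values of -0.032, 0.24, 0.0071 and -0.057 in females 1 to 4, against -0.13, -0.0071, 0.32 and 0.19 in males 1 to 4. Over the 8 genes, r with Pcyt2 ran from -0.62 for Gpcpd1 to 0.63 for Plpp1 (exact permutation p = 0.10 and 0.094, adjusted p = 0.46 for both). Spearman rho was -0.52 and 0.60 (exact permutation p = 0.20 and 0.13, adjusted p = 0.91 and 0.79). Without males 3 and 4 the r of Gpcpd1 was -0.096, so it rested on these hearts, and without females 1 and 3 that of Plpp1 was 0.71.

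Among the 22172 genes outside the set, each gene's closest match in pattern over the 8 arrays was picked as the highest Pearson r. Plpp1 was closest to Acadl, an acyl-CoA dehydrogenase gene of fatty acid oxidation (r = 0.95, rho = 0.95), and Gpcpd1 to Cep95 (r = 0.96, rho = 0.86). Slc44a1 was closest to 2310034G01Rik (r = 0.98), Slc44a2 to Wnt11 (r = 0.98), Chka to Il23a (r = 0.996), Pcyt1a to 4930555B11Rik (r = 0.97), Pcyt1b to Snai3 (r = 0.99) and Chpt1 to Dtd1 (r = 0.98). The matches are the highest of many genes over few arrays and so carry no test.

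The wider choline network was described with 7 lists holding 55 genes, of which 50 were measured. Again 0 passed an adjusted p under 0.05, and 31 had higher means in females, with a median difference of 0.020. At an unadjusted p under 0.05 there were 3 of 50, all higher in females. Over all genes 6.96% had such a p in either direction, 3.63% higher in females and 3.32% lower. The 3 genes do not exceed the share in either direction. Genes of phosphatidylcholine hydrolysis and glycerophosphocholine turnover had 11 of 13 higher means in females and a median of 0.044. Their member with the smallest p was Pnpla7, a lysophospholipase gene whose enzyme makes glycerophosphocholine. Pnpla7 had 0.22, 0.12, 0.068 and -0.028 in females 1 to 4, against -0.085, 0.028, -0.076 and -0.10 in males 1 to 4. All but 1 of the female hearts lay above every male heart, and the difference was 0.15 ± 0.055 (SE, limma unadjusted p = 0.021, adjusted p = 0.63). Pla2g6, a calcium-independent phospholipase A2 gene, had a difference of 0.087 ± 0.041 (SE, limma adjusted p = 0.73).

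**Figure D5:**
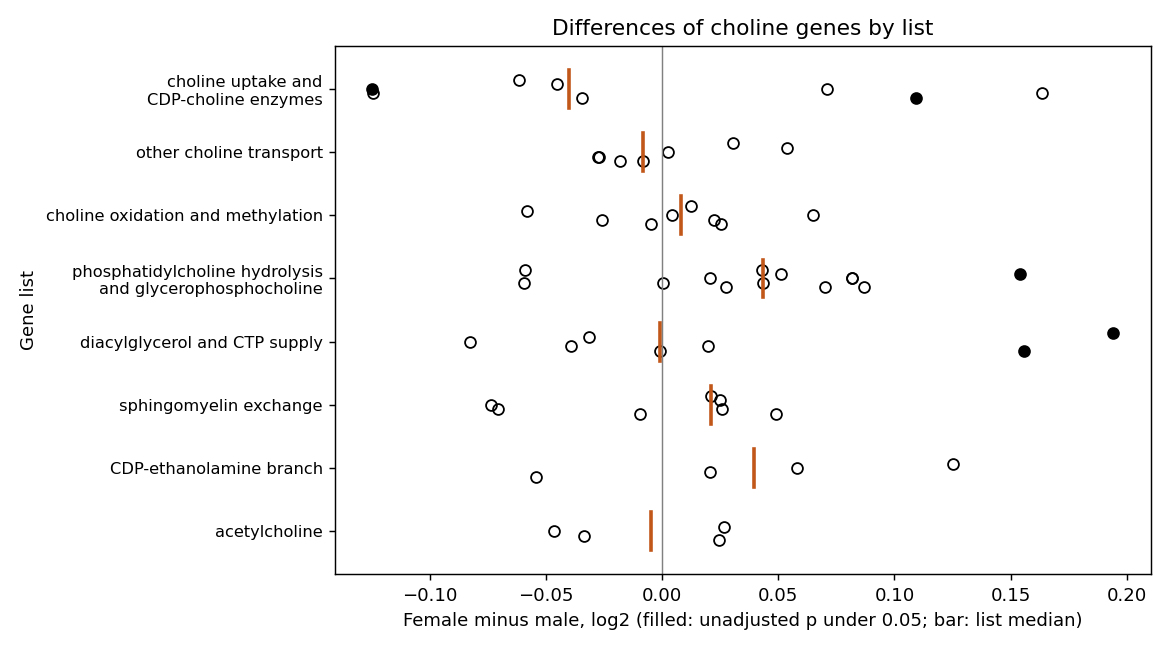
Difference of each gene (female minus male, log2, x axis) in the 8 measured genes of choline uptake and CDP-choline synthesis and in 7 related lists (y axis). Filled points have an unadjusted p under 0.05, and bars are list medians, which run from -0.040 for the CDP-choline genes to 0.044 for the hydrolysis genes.

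The supply of the other substrates of the pathway gave 2 of these 3 genes. Ctps, which encodes a CTP synthase, had 0.018, 0.24, -0.018 and 0.058 in females 1 to 4, against -0.11, -0.14, -0.10 and 0.019 in males 1 to 4, a difference of 0.16 ± 0.060 (SE, limma unadjusted p = 0.029, adjusted p = 0.66). Lpin3, a phosphatidic acid phosphatase gene, had 0.23, 0.014, 0.26 and -0.048 in females 1 to 4, against 0.023, -0.12, -0.21 and -0.014 in males 1 to 4, a difference of 0.19 ± 0.080 (SE, limma unadjusted p = 0.039, adjusted p = 0.69). In both genes 2 female hearts lay above all male hearts, and the others overlapped. This list of 7 had 3 higher means in females and a median of -7.8e-04, so its 2 leading genes were not typical of it.

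The remaining lists had 0 genes at an unadjusted p under 0.05. Of 7 other measured choline carriers 3 had higher means in females, with Slc5a7, the high-affinity choline transporter of cholinergic nerves, at 0.054 and the organic cation transporter gene Slc22a2 at 0.031. Choline oxidation and methylation had 5 of 8, with Pemt, whose enzyme methylates phosphatidylethanolamine to phosphatidylcholine, at 0.065 ± 0.050 (SE, limma adjusted p = 0.87) and the methyltransferase gene Bhmt2 at -0.058. Sphingomyelin exchange had 4 of 7, with the synthase gene Sgms1 at 0.049 and its relative Samd8 at -0.074. The list for the CDP-ethanolamine branch had 3 of 4, with the ethanolaminephosphotransferase gene Selenoi at 0.058. Its count includes the phosphatidylserine decarboxylase gene Pisd, which is not part of that branch, at 0.13 ± 0.088 (SE, limma adjusted p = 0.85). Acetylcholine genes had 2 of 4, with the vesicular transporter gene Slc18a3 at -0.034 and the esterase gene Ache at -0.046.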

How the data were processed

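Per the labels' protocols, hearts were frozen on collection, 3 to 4 hours into the light phase, and 100 ng of total RNA was labelled with biotin by the Affymetrix procedure. The authors deposited log2 values for 34351 probe sets. How background, normalization, summarization and genome build were handled is not given in the sources used here. The log base is not stated either and was taken as 2. Each probe set is centred to a median of 0 (tolerance 1e-06), so filters on brightness and absolute levels could not be had. The number of arrays limits the precision.

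The platform annotation gave a single symbol to 23521 probe sets and several to 1814, which were not used, while 9016 are unnamed here. Probe sets of a gene were averaged. Differences were fitted over 22180 genes with limma 3.58.1 in R 4.3.3 (lmFit, eBayes, sex as the only term) and adjusted by Benjamini-Hochberg over all of them. Single genes were also given an exact permutation test over 70 splits, and relations between genes one over 40320 pairings. The 9 genes, the lists, and the rule for naming genes (all members, Pcyt2, the 2 smallest p of each list, the 3 pairs of members with the smallest Pearson p, each member's closest match) were chosen with earlier results of these data known. Chkb was unmeasured, so 36 relations were computed in place of those planned with it. Of the lists' 55 genes, 50 had a probe set of their own, and of the 4 erythroid markers 0 had one. Alternatives were quantile normalization, array centring, single probe sets, a replicate block, array weights, trend and robust variance settings, marker covariates, left-out arrays, autosomal genes only and another threshold. The code was tested on simulated data.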

Additional observations from a re-analysis of the deposited data

How the results depend on the processing

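No gene of the set passed an adjusted p under 0.05 in any of the 21 alternatives, a threshold of 0.1 included, and no gene of the related lists did in 20. The differences of Slc44a1 (0.061 to 0.16), Slc44a2 (-0.26 to -0.080), Gpcpd1 (0.076 to 0.31), Plpp1 (-0.20 to -0.091) and Pcyt1b (-0.096 to -0.032) kept their direction in every alternative run for them. For these genes some alternatives could not turn it. Trend and robust settings, the replicate block, autosomal genes only, single probe sets and the permutation test repeat the main estimate. The differences of Chka, Pcyt1a and Chpt1 did not keep their direction: Chka was -0.055 by probe set 17361002 alone, Pcyt1a was 0.044 and Chpt1 0.0039 with the adipocyte marker mean as a covariate, and over left-out single arrays Pcyt1a ran from -0.085 to 3.4e-04. The cause was not tested. The r of the 3 pairs with the smallest p, and of Pcyt1a and Chpt1 (0.58 to 0.82, added after seeing the data), kept its sign in all 11 alternatives. These pairs were picked on the same arrays, so the kept signs do not test them. Over all genes, the 7 calls became 4 with the adipocyte covariate, 4 to 7 with single arrays left out (4 without male 3) and 0 among autosomal genes only (limma, with 1453 at an unadjusted p under 0.05). The count of 2 genes of the set at an unadjusted p under 0.05 ran from 0 to 3.

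Replicate numbers 1 to 4 occur in both sexes, and the labels do not say that they pair animals. Deviations from the sex means correlated over genes at 0.14, 0.097, 0.0062 and 0.091 in the same-numbered hearts. Of the 4 females, 3 correlated best with the same-numbered male, while female 3 did so with male 1. For female 2 the margin was narrow (0.0972 with male 2 and 0.0955 with male 4). Only the pair of female 1 and male 1 passed 0.1, so the numbers were not taken to pair the animals. The correlations are at most a weak hint from the data. With the replicate block 8 genes passed over all genes, 0 of them in the set or the related lists, and 3 genes of the set had an unadjusted p under 0.05: Slc44a1, Plpp1 and Gpcpd1 (0.039 with the block, 0.14 without it; limma adjusted p = 0.64 with it).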
